A study of Mus musculus with 4 samples.

Results

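Microglia are the resident macrophages of the brain, and 43 of their genes were followed here in hippocampus with and without a targeted Atp6ap2 allele. The genes were chosen by name: 21 mark microglia at rest (Aif1 to Ptprc) and 22 are genes of activated microglia (Apoe to Tnf), out of 23466 gene symbols in the deposited table. All 43 were in the table, and each was represented by the transcript record with the highest mean over the 4 libraries. Microglia depend on the growth factor receptor Csf1r and the transcription factor PU.1, encoded by Spi1, and read neuronal signals through receptors such as Cx3cr1 and P2ry12. After injury, demyelination or neurodegeneration they lower part of this programme. They also raise genes of lipid handling, phagocytosis and lysosomes such as Apoe, Lpl, Cst7, Itgax and Clec7a, in part through the Trem2 and Tyrobp receptor complex. Chemokines and cytokines such as Ccl3, Il1b and Tnf belong to a faster inflammatory response.

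The samples were hippocampi of C57BL/6N mice at postnatal day 30, sequenced after removal of ribosomal RNA. Controls were the 2 wild-type samples, numbered 11 and 73, and the 2 mutants, 38 and 39, had Camk2a-Cre together with a conditional allele of Atp6ap2. Camk2a-Cre is a recombinase active in forebrain excitatory neurons, so that the microglia were not the cells targeted. The titles call the mutants ko while the condition field calls them a conditional het. Atp6ap2, an accessory subunit of the vacuolar proton pump, is X-linked. Its own signal was 2312 in wild-type 11, 2637 in wild-type 73, 2551 in mutant 38 and 2522 in mutant 39, in scaled read equivalents. This sum over the whole transcript was not lower in the mutants and does not show whether an exon was lost, so the genotypes rest on the labels alone. A scaled read equivalent is the deposited signal divided by the 42 bases of 1 read. The libraries held between 10023033 (wild-type 73) and 18339838 (wild-type 11) read equivalents before the authors' scaling. Wild-type 11 and mutant 38 held far more choroid plexus RNA than the other 2 libraries, with 41492 and 70079 scaled read equivalents of Ttr, the main secreted protein of that tissue, against 2562 in wild-type 73 and 1749 in mutant 39. Wherever a pair of values stands against another pair below, the order is wild-type 11 and 73, then mutant 38 and 39, in scaled read equivalents. In bulk tissue, fewer microglia and less RNA per microglial cell cannot be told apart.

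Promoter sequences of 8 of these genes are printed below as a description, and enrichment of letters over other genes was not tested. RefSeq promoter windows (GRCm38.p6) were matched by symbol for 34 of the 43 genes, and the 250 bases before the start were searched on both strands for GAGGAA, the core letters bound by PU.1. The letters were found in 9 of 15 matched resting genes (60.0%) and 7 of 19 matched activation genes (36.8%), against 25.9% of 27025 genes in the same table, a gene counting where any of its windows held them. The resting genes were Aif1, Itgam, C1qb, C1qc, Trem2, Fcrls, Laptm5, Cd53 and Ptprc, and the activation genes Apoe, Clec7a, Spp1, Ccl3, Cd68, Axl and Tnf. A longer form, GAGGAAGT, which contains that core, was found only in C1qc among the resting genes and Spp1 among the activation genes, and in 2.79% of all genes. AP-1 letters, TGANTCA, were found in Trem2, Itgax, Cd68 and Cybb and in 7.82% of all genes, and the ETS and IRF composite (GGAA, any 2 bases, then GAAA) in Clec7a and in 2.68% of all genes. A match of letters is a description and shows no binding. The windows below run 5′ to 3′ along the gene. The 6 resting genes with the core within 50 bases of the start come with the 100 bases before it, and C1qc and Spp1 with 100 bases around the longer form. Capitals mark the core or, in C1qc and Spp1, the longer form, on either strand.
Aif1, GRCm38.p6, chr17:35176053-35176152, minus strand: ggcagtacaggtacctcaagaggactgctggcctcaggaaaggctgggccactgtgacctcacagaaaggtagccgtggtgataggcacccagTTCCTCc
Itgam, GRCm38.p6, chr7:128062540-128062639, plus strand: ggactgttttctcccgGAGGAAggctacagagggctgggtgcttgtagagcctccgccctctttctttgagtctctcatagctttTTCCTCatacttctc
C1qb, GRCm38.p6, chr4:136886201-136886300, minus strand: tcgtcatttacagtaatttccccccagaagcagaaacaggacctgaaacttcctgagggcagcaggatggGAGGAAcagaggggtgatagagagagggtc
Trem2, GRCm38.p6, chr17:48346301-48346400, plus strand: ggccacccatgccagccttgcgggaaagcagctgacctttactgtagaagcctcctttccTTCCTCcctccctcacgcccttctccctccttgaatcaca
Laptm5, GRCm38.p6, chr4:130913216-130913315, plus strand: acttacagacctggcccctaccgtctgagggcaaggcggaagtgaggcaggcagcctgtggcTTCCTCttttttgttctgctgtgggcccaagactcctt
Cd53, GRCm38.p6, chr3:106790150-106790249, minus strand: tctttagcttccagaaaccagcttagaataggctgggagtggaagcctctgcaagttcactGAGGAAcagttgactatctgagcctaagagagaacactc
C1qc, GRCm38.p6, chr4:136893056-136893155, minus strand: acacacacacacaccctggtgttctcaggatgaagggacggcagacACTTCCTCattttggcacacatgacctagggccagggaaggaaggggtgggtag
Spp1, GRCm38.p6, chr5:104434952-104435051, plus strand: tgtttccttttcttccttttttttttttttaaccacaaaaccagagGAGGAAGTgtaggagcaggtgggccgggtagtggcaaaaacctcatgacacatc
The cores of C1qb, Trem2, Laptm5 and Cd53 begin at positions -30, -40, -38 and -39, where -1 is the base before the start, and that of Aif1 at -7. Itgam, an integrin subunit of the complement receptor, has a pair of cores, at -84 and -15. In C1qb and Cd53 the core reads GAGGAA along the gene, and in Trem2 and Laptm5 it reads as the reverse complement, TTCCTC.

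No microglial gene passed the test between mutant and wild-type hippocampus, and most resting genes lay within a narrow range in all 4 libraries. None of the 41 genes that could be tested, 21 resting and 20 activation genes, passed at an adjusted p of 0.05 in a limma fit over 18127 genes, where 0.00552% of genes passed (1 gene). Adjusted p-values of the 41 genes ran from 0.989 to 0.999. At an unadjusted p below 0.05 there was 1 higher gene, the complement gene C1qa, where 2.18% of all genes tested reached that level, and 1 lower gene, the cholesterol hydroxylase gene Ch25h, against 1.75%. In the authors' deposited table, 0 of the 43 genes had a p below 0.05, against 2.15% of the genes tested. The lowest there was 0.0595, for C1qa. Ccl4 and Tnf had signal in 1 library and were not tested. With 2 libraries a group, n is 2 for every mean and fold change here. The labels do not name an animal for each sample, so the p-values speak only of how far these samples spread, which may be technical.

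The resting genes lay close to wild-type in sum and, for 18 of the 21, within 0.25 of 0 on the log2 scale. Their median log2 fold change, mutant minus wild-type, was 0.04, where the median over all genes tested was 0.0067. Sign aside, the median size was 0.11 for resting genes and 0.14 over all genes tested, so that most genes also lay within 0.25 of 0. Summed over the 21 genes, signal was 8117 and 7940 in wild-type against 8125 and 8321 in mutant hippocampus. The mutant mean of this sum was 102% of the wild-type mean. For 20 of the 21 genes the 95% interval of the fold change lay inside a 2-fold change in both directions (95.2%, against 70.2% of all genes tested). The exception was Fcer1g, whose interval reached -1.06.

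**Figure D1:**
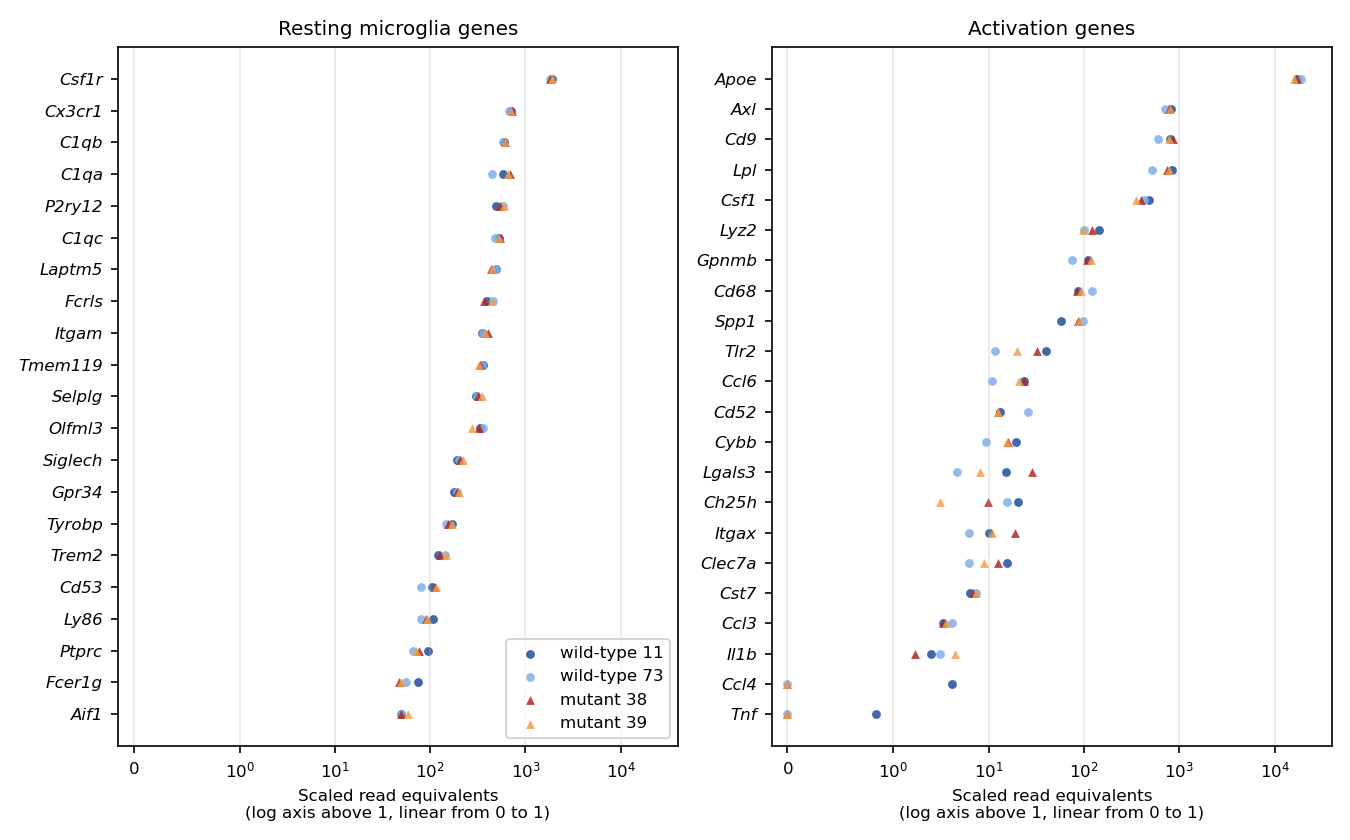
Signal of each gene in each library in scaled read equivalents, for the 21 resting genes (left) and the 22 activation genes (right), sorted by mean; circles are wild-type and triangles mutant libraries, and the axis is logarithmic above 1 and linear from 0 to 1. The 4 symbols of most resting genes fall almost on each other, while those of many activation genes below about 50, such as Tlr2 and Lgals3, spread apart, and Ch25h stands with both mutants at the low end.

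Receptors through which microglia sense neurons and the tissue differed little between the genotypes. Csf1r, the receptor for the survival factors Csf1 and Il34, had 1883 and 1823 in wild-type against 1793 and 1878 in mutant hippocampus. Mutant 38 was lowest and mutant 39 lay between the wild-types, and the log2 fold change was -0.01 ± 0.09 (SE; 95% interval from -0.24 to 0.21). Cx3cr1, the receptor for the neuronal chemokine fractalkine, had 707 and 672 in wild-type against 718 and 706 in mutant samples. Wild-type 73 was lowest and the other 3 libraries were nearly level, with a log2 fold change of 0.05 ± 0.11 (SE). P2ry12, the purine receptor that guides microglial processes and is lost on activation, had 495 and 586 in wild-type against 546 and 593 in mutant samples. Its groups overlapped, and its log2 fold change was 0.08 ± 0.13 (SE; 95% interval from -0.23 to 0.39), so that the interval leaves out a loss of more than 0.23 on the log2 scale. Gpr34, a lysophosphatidylserine receptor, and Siglech, a sialic acid-binding lectin, had both mutants above both wild-types by little: 178 and 191 against 191 and 199 scaled read equivalents for Gpr34, and 190 and 201 against 206 and 222 for Siglech. Tmem119, a membrane protein that sets microglia apart from other macrophages, had 361 and 350 in wild-type against 332 and 329 in mutant samples. Both mutants were below both wild-types, with a log2 fold change of -0.11 ± 0.13 (SE; limma adjusted p = 0.989).

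The Trem2 complex had nearly the same range of values in both groups. Trem2, a lipid-binding receptor, had 122 and 143 in wild-type against 125 and 146 in mutant hippocampus. Tyrobp, the adaptor through which Trem2 signals, had 171 and 148 in wild-type against 154 and 171 in mutant samples. For both genes the groups overlapped almost fully, with log2 fold changes of 0.04 ± 0.20 and 0.03 ± 0.18 (SE). Fcer1g, the adaptor of Fc receptors, was the resting gene with the lowest fold change. It had 74.7 and 56.2 in wild-type against 47.2 and 49.4 in mutant samples. Both mutants were below both wild-types, wild-type 11 stood above the other 3 libraries, and the log2 fold change, -0.42 ± 0.27 (SE), did not pass (limma adjusted p = 0.989).

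The 3 chains of C1q, which starts the classical complement cascade and tags synapses, all had both mutants above both wild-types. Of all genes tested, 16.8% did. C1qa was the furthest apart, and the groups of C1qb were barely apart. C1qa had 587 and 449 in wild-type against 689 and 657 in mutant hippocampus. Its wild-type libraries differed from each other more than its mutants did, and wild-type 73 was the lowest. Its log2 fold change was 0.39 ± 0.15 (SE; limma adjusted p = 0.989; 95% interval from 0.03 to 0.75), 0.20 without wild-type 73 and 0.58 without wild-type 11. C1qb had 601 and 588 in wild-types 11 and 73 and 603 in each mutant. C1qc had 524 and 484 in wild-type against 536 and 532 in mutant samples. The log2 fold changes of C1qb and C1qc were 0.02 ± 0.11 and 0.09 ± 0.12 (SE). The chains are joined in equal numbers in the protein. Per kilobase of transcript, C1qa stood to C1qb as 1.02 in wild-type 11, 0.800 in wild-type 73, 1.20 in mutant 38 and 1.14 in mutant 39, while C1qc stood to C1qb between 0.744 (wild-type 73) and 0.803 (mutant 38). The ratio of C1qa to C1qb thus varied between libraries more than that of C1qc to C1qb.

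Both mutants lay above both wild-types for 8 of the 21 resting genes (38.1%), where 16.8% of all genes tested did, and below them for 4 (19.0%), where 16.5% did. The 8 were Itgam, C1qa, C1qb, C1qc, Gpr34, Siglech, Selplg and Cd53. The 4 were Tmem119, Fcer1g, Olfml3 and Laptm5. Genes of 1 cell type share the amount of that cell type in each library and are not independent of each other. Itgam had 346 and 361 in wild-type against 403 and 378 in mutant samples, and Selplg, a ligand of selectins, had 300 and 312 in wild-type against 321 and 353 in mutant samples. Cd53, a tetraspanin of leukocytes, had 103 and 79.3 in wild-type against 114 and 116 in mutant samples, with a log2 fold change of 0.34 ± 0.22 (SE). In Cd53 as in C1qa wild-type 73 was the lowest library and the mutants were close to each other. Laptm5, a lysosomal membrane protein of blood cells, had 493 and 489 in wild-type against 436 and 446 in mutant samples. The libraries of each group were close, yet the log2 fold change of -0.15 ± 0.12 (SE) was small and did not pass. Olfml3, a secreted matrix protein, had 331 and 354 in wild-type against 328 and 273 in mutant samples, so that mutant 39 alone was far from the rest.

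The other resting genes overlapped between groups. Aif1, the calcium-binding protein Iba1 used to stain microglia, had 49.3 and 49.0 in wild-type against 49.1 and 59.1 in mutant samples, with a log2 fold change of 0.13 ± 0.26 (SE; 95% interval from -0.49 to 0.75). Only mutant 39 stood above the other libraries. Ptprc, the leukocyte phosphatase CD45, had 95.5 and 66.1 in wild-type against 75.9 and 70.9 in mutant samples, the mutants lying between the wild-types. Fcrls, an Fc receptor-like scavenger receptor, and Ly86, a partner of a Toll-like receptor homologue, had log2 fold changes of -0.07 ± 0.15 and -0.02 ± 0.23 (SE). Fcrls had 399 and 459 against 366 and 450, and Ly86 had 107 and 79.6 against 90.1 and 91.8.

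**Figure D2:**
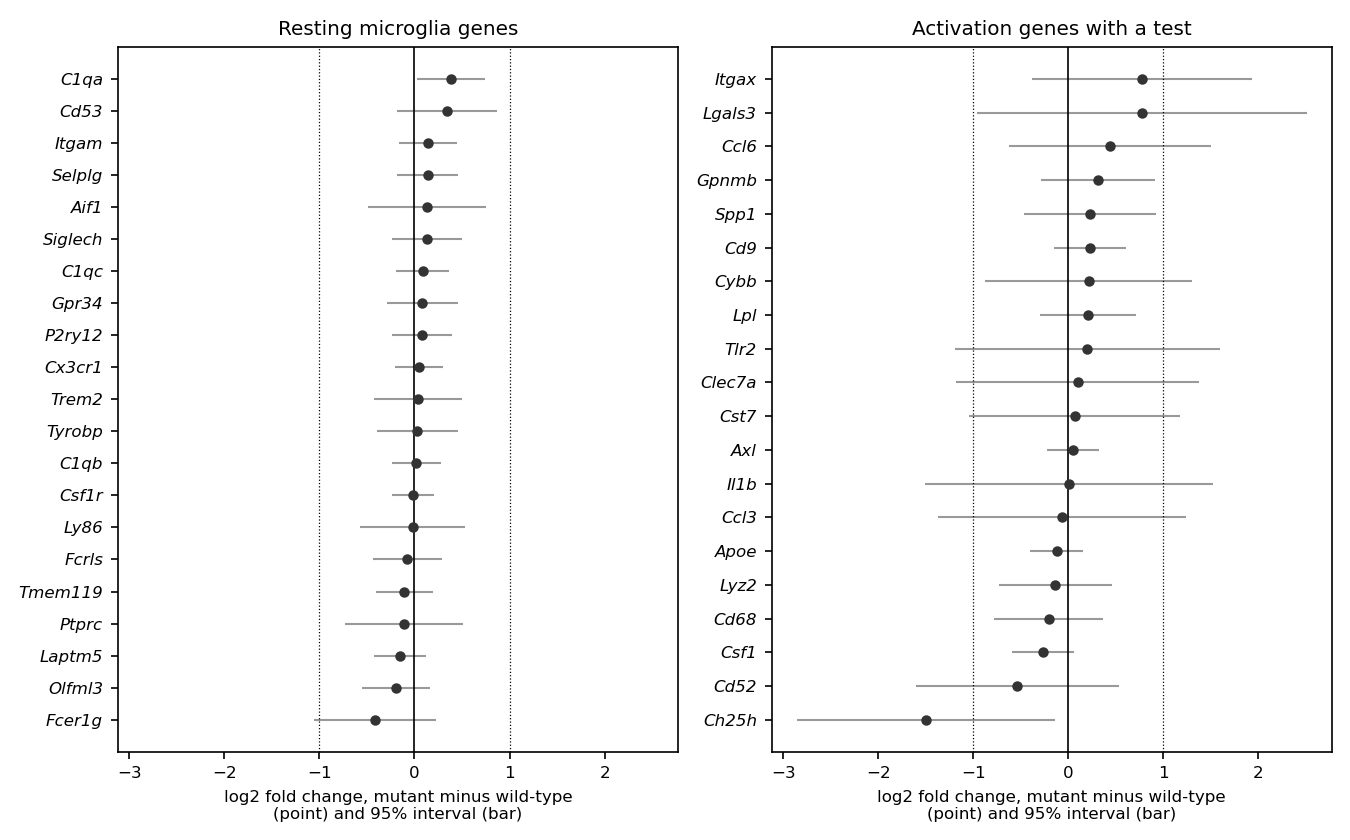
The log2 fold change of each tested gene, mutant minus wild-type (point), with its 95% interval from limma (bar); dotted lines mark a 2-fold change. All resting genes but Fcer1g have bars inside the dotted lines, and the bars of activation genes with few reads, such as Lgals3, Il1b and Ch25h, reach beyond them.

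No activation gene passed the test, and their fold changes lay on both sides of 0, with 13 above and 7 below. Their median log2 fold change over the 20 tested was 0.08, beside 0.0067 over all genes tested. It was 0.27 within the pair of libraries low in choroid plexus RNA (mutant 39 minus wild-type 73), and -0.06 within the pair high in it (mutant 38 minus wild-type 11). Their log2 fold changes ran from -1.50 (Ch25h) to 0.78 (Itgax). Both mutants lay above both wild-types for 1 gene, Itgax, and below for 4, Apoe, Cd52, Csf1 and Ch25h (5% and 20% of the 20, against 16.8% and 16.5% of all genes tested). Without Apoe, which outweighs the rest, the summed signal was 3503 and 2744 in wild-type against 3341 and 3209 in mutant hippocampus. The mutants lay between the wild-types.

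Genes of lipid handling differed in how much signal they had. Apoe, the main brain apolipoprotein, made largely by astrocytes at rest and raised in microglia on activation, had 17192 and 19036 in wild-type against 17148 and 16159 in mutant hippocampus. Both mutants were below both wild-types, wild-type 11 and mutant 38 were nearly equal, and the log2 fold change was -0.12 ± 0.12 (SE; 95% interval from -0.40 to 0.16). Lpl, the lipase that frees fatty acids from lipoproteins, had 836 and 518 in wild-type against 744 and 779 in mutant samples. Its wild-types were on either side of the mutants, with a log2 fold change of 0.21 ± 0.21 (SE). Ch25h, which makes 25-hydroxycholesterol, had the largest fold change of the 41 genes. It had 20.1 and 15.6 in wild-type against 9.85 and 3.07 in mutant samples, which stand for 24.1, 10, 11.7 and 3.40 read equivalents before scaling. Both mutants were below both wild-types, mutant 39 the furthest. The log2 fold change was -1.50 ± 0.57 (SE; limma adjusted p = 0.989; 95% interval from -2.85 to -0.14), -0.79 without mutant 39 and -2.20 without mutant 38. An annotated gene on the other strand, Gm26902, overlaps an exon of Ch25h, and whether the authors' counting used strand is not given in the sources used here. The same holds for Cx3cr1 with Gm33858, Csf1r with Hmgxb3 and Cd9 with Gm26728, while Itgam and Spp1 overlap Gm49368 and Gm42793 on their own strand.

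Csf1, the growth factor that acts on Csf1r and is made by several brain cell types, had 480 and 424 in wild-type against 399 and 353 in mutant samples. Both mutants were below both wild-types, and the difference of -0.27 ± 0.14 on the log2 scale (SE; limma adjusted p = 0.989) did not pass, with a 95% interval from -0.59 to 0.06. It was -0.27 within each pair of libraries, the one low and the one high in choroid plexus RNA. Il34, the other ligand of Csf1r, had 417 and 498 against 398 and 505, with overlapping groups and a log2 fold change of -0.02 ± 0.16 (SE).

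Several surface proteins of activated microglia had few reads. Itgax, the integrin subunit CD11c, had 10.02 and 6.25 in wild-type against 18.8 and 10.8 in mutant samples, from 12, 4, 22.3 and 11.98 read equivalents before scaling. Wild-type 11 and mutant 39 were nearly equal, and the log2 fold change was 0.78 ± 0.49 (SE; limma adjusted p = 0.989; 95% interval from -0.38 to 1.93). Clec7a, the beta-glucan receptor Dectin-1, had 15.5 and 6.25 in wild-type against 12.7 and 9.03 in mutant samples, with the mutants between the wild-types. Tlr2, a Toll-like receptor for bacterial lipoproteins, had 40.0 and 11.7 in wild-type against 32.1 and 19.8 in mutant samples, again with the mutants in between. Cd52, a small glycoprotein of leukocytes, had 13.2 and 26.2 in wild-type against 12.5 and 12.6 in mutant samples, so that wild-type 73 alone stood apart, with a log2 fold change of -0.54 ± 0.45 (SE). Axl, a receptor for bridging proteins on dying cells, Cd9, a tetraspanin also abundant in oligodendrocytes, and Gpnmb, a glycoprotein of lipid-laden macrophages, had log2 fold changes of 0.05 ± 0.12, 0.23 ± 0.16 and 0.31 ± 0.25 (SE). Axl had 809 and 705 against 776 and 791, Cd9 had 805 and 599 against 854 and 775, and Gpnmb had 111 and 74.6 against 109 and 118. In each of these genes, wild-type 73 was the lowest library.

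Lysosomal and secreted products also overlapped between groups. Cd68, a lysosomal glycoprotein used to stain phagocytic microglia, had 87.3 and 121 in wild-type against 84.3 and 94.1 in mutant samples, with a log2 fold change of -0.21 ± 0.24 (SE; 95% interval from -0.78 to 0.37). Lyz2, lysozyme of myeloid cells, had 144 and 99.6 in wild-type against 122 and 96.8 in mutant samples. Its near-identical copy Lyz1 may share its reads, so its value is uncertain. Spp1, the secreted protein osteopontin, had 57.6 and 96.6 in wild-type against 87.3 and 88.1 in mutant samples, the mutants lying between the wild-types. Lgals3, galectin-3, had 15.0 and 4.68 in wild-type against 28.5 and 8.02 in mutant samples, high in the libraries rich in choroid plexus RNA and low in the other two. Its log2 fold change of 0.77 ± 0.73 had the widest error of the 41 genes. Cst7, an inhibitor of lysosomal proteases that is a leading gene of disease-associated microglia, had 6.30 and 7.29 in wild-type against 6.85 and 7.44 in mutant samples. Its 4 libraries were nearly level at 4.67 to 8.24 read equivalents before scaling, and the interval, -1.05 to 1.18, does not leave out a 2-fold change.

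Most chemokines and cytokines were at the limit of detection. Ccl3 had 3.34 and 4.09 in wild-type against 3.36 and 3.61 in mutant samples, and Il1b had 2.51 and 3.12 in wild-type against 1.69 and 4.45 in mutant samples. Before scaling, both stand for 2 to 4.93 read equivalents a library. Ccl4 had 4.18 in wild-type 11, from 5 read equivalents, and Tnf had 0.835 there, from 1. Both were at 0 in the other 3 libraries, which allows up to 3 reads, or 4.68 scaled read equivalents in wild-type 73, 2.53 in mutant 38 and 2.71 in mutant 39, for counting error only. A difference in Ccl4 or Tnf was not detectable at this depth. Ccl6, another chemokine of macrophages, had 23.3 and 10.9 in wild-type against 23.5 and 20.8 in mutant samples, with only wild-type 73 apart. Cybb, the catalytic subunit of the phagocyte oxidase, had 19.4 and 9.37 in wild-type against 16.0 and 15.7 in mutant samples, with wild-type 73 again lowest.

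**Figure D3:**
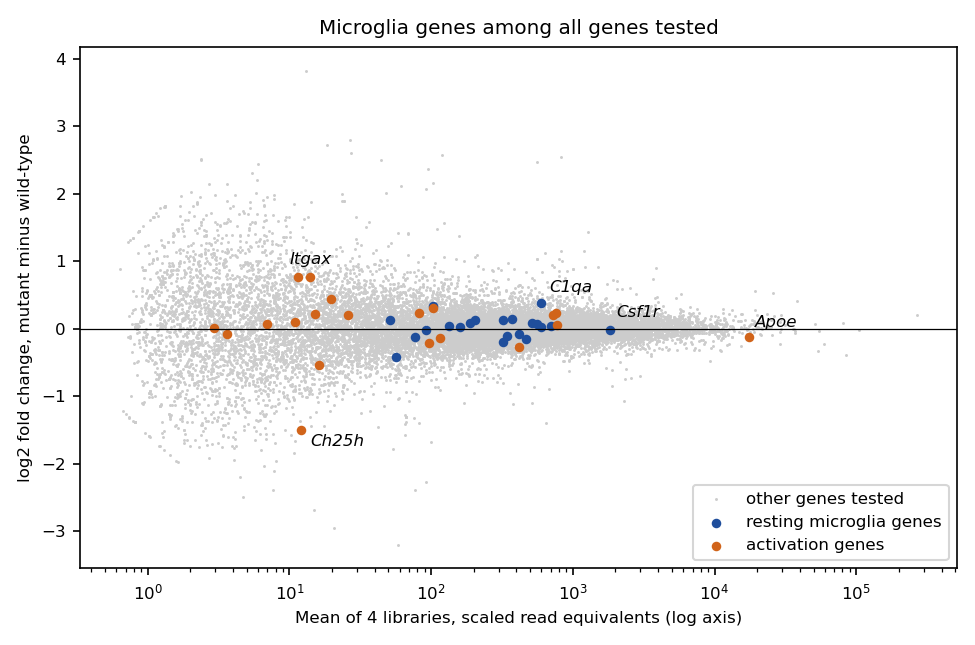
Log2 fold change (mutant minus wild-type) against the mean of the 4 libraries on a log axis, for resting genes (blue), activation genes (orange) and the other genes tested (grey). The members lie inside the cloud of genes of like signal, C1qa near its upper edge and Ch25h near its lower edge.

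The 2 sets differed in how precisely they could be measured. Resting genes had mean signals between 51.6 (Aif1) and 1844 (Csf1r) scaled read equivalents and a median SE of 0.15 on the log2 scale. Tested activation genes had means between 2.94 (Il1b) and 17384 (Apoe) and a median SE of 0.45, and 12 of the 22 had means below 25. For 9 of the 20 tested (45.0%, against 70.2% of all genes tested) the 95% interval lay inside a 2-fold change in both directions. Per kilobase of transcript, Apoe led with 12346 scaled read equivalents, ahead of Cd9 at 618, C1qa at 573, C1qb at 550 and Csf1r at 477. On the same scale Cst7 was at 7.07, Clec7a at 4.78 and Itgax at 2.84, in the lowest 15.7%, 12.7% and 9.10% of genes tested. These 3 genes of the disease-associated state held between 4 and 22.3 read equivalents before scaling in every library.

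As a sum, the scarce activation genes were higher in the 2 libraries rich in choroid plexus RNA than in the other pair, with 1 library of each genotype on either side. Summed over the 12 genes with a mean below 25, signal was 134 in wild-type 11 and 134 in mutant 38, against 93.7 in wild-type 73 and 95.5 in mutant 39. Within these 12, Clec7a, Ccl6, Lgals3 and Cybb were each higher in the rich pair, and Cst7, Ccl3 and Il1b were each lower in the rich pair. Border macrophage markers, genes of macrophages in meninges, vessels and choroid plexus, were as a sum also higher in that pair. Summed over 11 markers they had 1185 in wild-type 11 and 1199 in mutant 38, against 842 in wild-type 73 and 861 in mutant 39. The most abundant of them was Stab1, with 531 and 463 in wild-type 11 and mutant 38 and 368 and 387 in wild-type 73 and mutant 39. None of the 11 was at 0 in every library. Of the 11, 6 (Mrc1, Pf4, F13a1, Stab1, Siglec1 and Colec12) were each higher in the rich pair and 0 were each lower. Over all genes tested, 20.6% were higher and 20.0% lower. For 4 others (Cd163, Lyve1, Cbr2 and Folr2, 36.4% of the 11) both mutants lay above both wild-types, against 16.8% of all genes tested. For 0 of the 11 both mutants lay below, against 16.5%. The part of choroid plexus and border macrophages in these values was not tested. Among activation genes, 7 of 20 (Clec7a, Ccl6, Cd9, Lyz2, Lgals3, Cybb and Tlr2) were higher in wild-type 11 and mutant 38 than in the other two, where 20.6% of all genes tested were, and 5 were lower (Cst7, Spp1, Ccl3, Cd68 and Il1b), where 20.0% were. Among the 21 resting genes the counts were 2 higher (Cx3cr1 and Ptprc) and 3 lower (P2ry12, Trem2 and Fcrls).

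**Figure D4:**
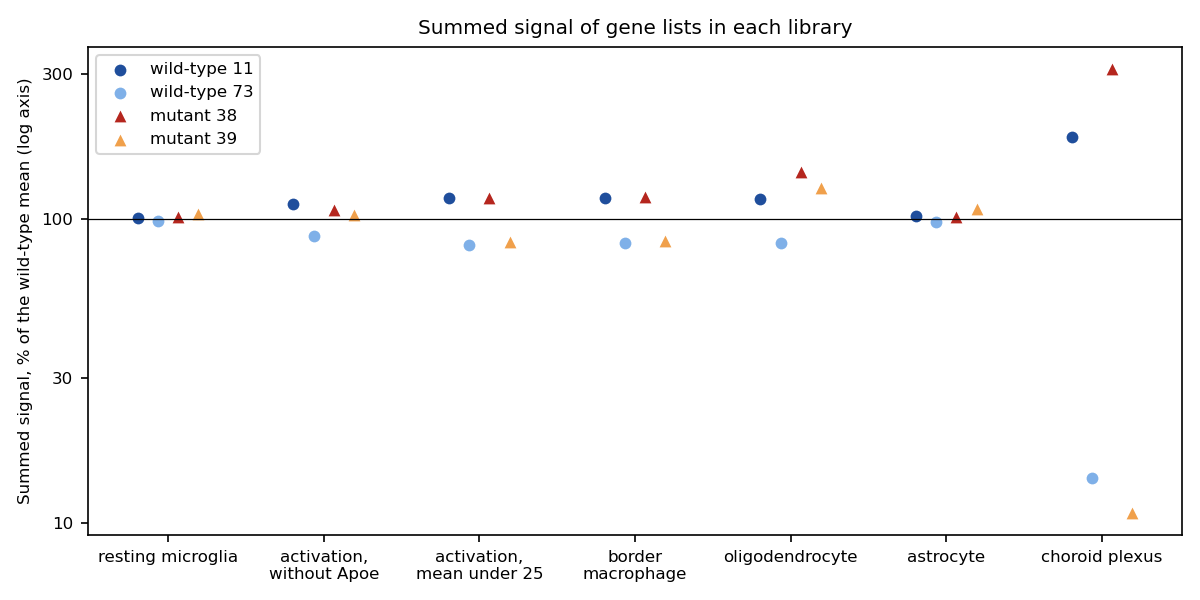
Summed signal of each gene list in each library as a percentage of the wild-type mean, on a log axis; circles are wild-type and triangles mutant libraries. Resting genes lie between 98.9% and 104% in all 4 libraries, the scarce activation genes and border macrophage markers are high in wild-type 11 and mutant 38, and choroid plexus markers are high in the same pair, over a far wider range.

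White blood cell markers were low. Markers of monocytes and neutrophils summed to between 51.2 and 73.5 scaled read equivalents over 11 genes, and markers of lymphocytes to between 18.8 and 30.3 over 12 genes, with Ncr1 at 0 in every library. Both sums were highest in wild-type 73 and overlapped between the genotypes. Of 10 oligodendrocyte markers, 9 had both mutant libraries above the wild-type ones, where 16.8% of all genes tested did. In limma 0 of 10 passed at an adjusted p of 0.05 and 7 were higher at an unadjusted p below 0.05 (2.18% of all genes), and 9 of 10 had a p below 0.05 in the authors' deposited table (2.15% of all genes). Their sum was 86491 and 61891 in wild-type against 106122 and 93601 in mutant hippocampus, lowest in wild-type 73. Microglial genes lay both ways in that library: some were lowest there, such as C1qa, Cd53, Cd9 and Gpnmb, and others highest, such as Apoe, Cd68, Spp1 and Fcrls. Red blood cell markers also had both mutants above both wild-types in sum, with 7426 and 5161 against 7957 and 9324 over 7 genes. The part of either in the values of the microglial genes was not tested.

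Within the 2 pairs of libraries alike in choroid plexus RNA, the sign of the difference was the same for 16 of 21 resting genes (11 above 0, 5 below) and for 11 of 20 activation genes (5 above, 6 below). The share of all genes tested with the same sign in both pairs was not taken, so the counts do not set these genes apart from other genes. C1qa was higher in the mutant of both pairs, by 0.55 in the pair of mutant 39 and wild-type 73 and by 0.23 in the pair of mutant 38 and wild-type 11 on the log2 scale. Ch25h was lower in both, with differences of -2.03 and -0.96. Itgax had 0.71 and 0.85, Lgals3 had 0.67 and 0.88, and Fcer1g had -0.18 and -0.65. Spp1 had -0.13 and 0.59, and Tlr2 had 0.71 and -0.31, so that their directions differed between the pairs. These differences are of single libraries and have no test.

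**Figure D5:**
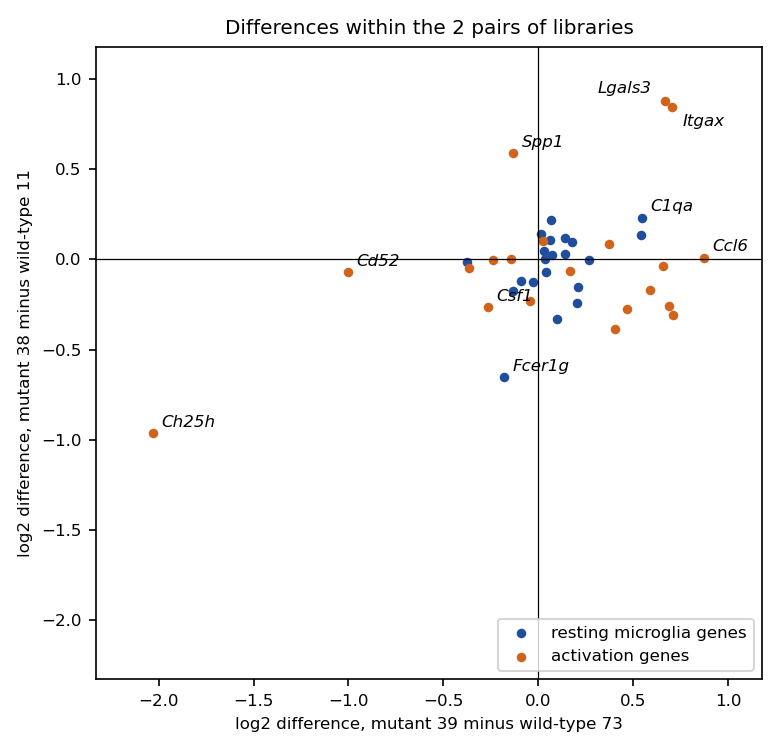
The log2 difference of each tested gene within the pair low in choroid plexus RNA (mutant 39 minus wild-type 73, horizontal) and within the pair high in it (mutant 38 minus wild-type 11, vertical). Resting genes (blue) gather near 0 on both axes, Ch25h lies at the lower left, and Itgax and Lgals3 lie at the upper right.

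Related genes gave 0 calls in limma at an adjusted p of 0.05 in each of 6 further lists, and of their 103 tested genes 3 were higher (Plaur, Nfkbia and Tlr7) and 1 lower (Timp2) at an unadjusted p below 0.05, against 2.18% and 1.75% of all genes tested. Among 25 other microglia identity genes, 16 had a fold change above 0 and 9 below, with a median log2 fold change of 0.04. Spi1 itself, encoding PU.1, had 43.8 and 54.7 in wild-type against 38.8 and 32.4 in mutant samples. Both mutants were lower, with a log2 fold change of -0.45 ± 0.29 (SE; limma adjusted p = 0.989). Runx1, a transcription factor of the blood and microglial lineage, had 0.51 ± 0.31, and Tgfbr1, a receptor subunit for the TGF-beta signal that keeps microglia at rest, had 0.18 ± 0.12 (SE).

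Among 23 other tested genes of disease-associated microglia the median log2 fold change was 0.07. Plaur, the urokinase receptor of myeloid and other cells, had 7.26 and 4.68 in wild-type against 56.5 and 38.2 in mutant hippocampus. Both mutants were far above both wild-types, with a log2 fold change of 2.79 ± 0.42 (SE; limma adjusted p = 0.251; 95% interval from 1.80 to 3.78), and its p in the authors' deposited table was 0.000884. Timp2, an inhibitor of matrix proteases, had -0.40 ± 0.15 and Cd44, a hyaluronan receptor, had -0.49 ± 0.21 (SE). In the authors' deposited table the p was 0.0121 for Timp2 and 0.145 for Cd44. The list thus held genes on both sides, and Plaur is also expressed outside microglia.

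Among 18 tested inflammatory ligands, sensors and genes of NF-kB feedback, the median was 0.21. Nfkbia, the NF-kB inhibitor that NF-kB itself induces, had 501 and 636 in wild-type against 1108 and 954 in mutant samples. Its log2 fold change was 0.86 ± 0.15 (SE; limma adjusted p = 0.394), and its p in the authors' deposited table was 2.46e-06. Tlr7, a sensor of single-stranded RNA in microglia, had 50.02 and 73.4 in wild-type against 103 and 117 in mutant samples. Both mutants were above both wild-types, with a log2 fold change of 0.84 ± 0.26 (SE; limma adjusted p = 0.989). The p of Tlr7 in the authors' deposited table was 0.0358. Ptgs2, an inducible prostaglandin synthase that hippocampal neurons also make, had 0.30 ± 0.13 (SE). Il6, Ccl2, Ccl7 and Cxcl2 had too little signal to be tested.

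Among 12 complement genes other than C1q the median was -0.07, and the smallest p belonged to Cfb, Serping1 and C3, with log2 fold changes of -0.51 ± 0.26, -0.27 ± 0.23 and -0.35 ± 0.52 (SE). None of the 12 was at an unadjusted p below 0.05, as C1qa was. Among 13 signals that neurons and glia send to microglia, and their receptors, the median was -0.0046. Mfge8, a bridging protein for phagocytosis, had -0.27 ± 0.12, Cd47, the signal that restrains it, had 0.40 ± 0.18, and Tgfb1 had 0.32 ± 0.37 (SE). Among 12 genes of Trem2 and Csf1r signalling the median was 0.07, with the phospholipase gene Plcg2 at -0.39 ± 0.19, the phosphatase gene Inpp5d at 0.27 ± 0.15 and the kinase gene Syk at 0.49 ± 0.31 (SE). The genes named from these lists are those with the smallest p-values, and 0 genes of the lists of complement, signals and Trem2 or Csf1r signalling had an unadjusted p below 0.05.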

How the data were processed

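RNA of 4 hippocampus samples was sequenced after removal of ribosomal RNA with the dUTP method, per the labels' protocols. The tools named in the submitters' processing notes are GSNAP and DESeq2, and the build is mm9, with no versions. Which program counted reads, with which strand setting and annotation, is not given in the sources used here. The authors deposited 31315 transcript records with 1 signal value for each library and 1 p-value, which the header does not call adjusted or unadjusted. The deposited signal is aligned bases per transcript divided by 1 factor per library: 100% of low values were whole multiples of 1 step (tolerance 0.05 of a step), with pile-ups at multiples of 42. It is not normalised for length and is in bases, not reads, so the edgeR test planned in case of counts was not run.

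Values were divided by 42, and for each of 23466 symbols the record with the highest mean was kept. The test was limma 3.58.1 (R 4.3.3) on log2(x + 1), x being read equivalents, for genes with at least 1 in 2 libraries (variance trend, two-sided, Benjamini-Hochberg over all 18127 genes, threshold 0.05). Group was the only term, since the replicate numbers differ between groups. Fold changes are on that scale, where the pseudocount shrinks those of low genes. The fit was also run on simulated data built from the means and errors of these data. Changes were placed only in genes of higher signal, so scarce genes were not covered. Python 3.11.15 and matplotlib 3.10.9 read the table and drew the plots. Transcript lengths came from GENCODE M21 by RefSeq accession, for 42 of the 43 genes (Cd68 had none), and promoters from RefSeq's GRCm38.p6. Members could all be named, and of each related list the 3 genes with the smallest p. The members, lists and alternatives were chosen with earlier results of these data known, and the promoter motifs after the fold changes were seen. Promoter windows of 1 chromosome were not used here. Alternatives were other pseudocounts and filters, median-ratio rescaling, a robust prior, the mean over records, a choroid plexus covariate and each library left out. The depth, 10023033 to 18339838 read equivalents, limits genes below about 25.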

Additional observations from a re-analysis of the deposited data

How the results depend on the processing

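Members called: 0 resting and 0 activation genes passed under each of the 13 alternatives with a test, with a smallest adjusted p (limma) of 0.213, for C1qa without wild-type 11. The number of all genes that passed was 12 with a robust variance prior, 80 with the level of choroid plexus markers as a covariate, and 1 to 37 when a library was left out (37 without wild-type 11, 8 without mutant 38, 7 without mutant 39), none of them members. The cause was not tested. When a library was left out, the remaining sample of its group was assumed to vary like the other group. The median log2 fold change of resting genes was then lowest, at -0.00057, without mutant 39 and highest, at 0.084, without wild-type 11. The resting median thus moved, without wild-type 11, by more than the spread between libraries, a pooled SD of 0.042. The activation median was -0.05 without wild-type 73, and moved by less than the wider spread of its set, 0.40, under all alternatives. Of 612 member values under the alternatives, 45 had the other sign, 29 of them with a library left out and 14 within the pairs, and all belonged to genes that passed in no fit. Log2 fold changes that changed sign with a library left out ranged as follows: Csf1r -0.047 to 0.019, Fcrls -0.22 to 0.074, Clec7a -0.50 to 0.69, Lgals3 -0.082 to 1.63, Tlr2 -0.64 to 1.05, Aif1 -0.00057 to 0.26 and Trem2 -0.079 to 0.15. Further ones were Tyrobp -0.076 to 0.13, Lyz2 -0.40 to 0.13, Il1b -0.50 to 0.52, P2ry12 -0.044 to 0.20, Ly86 -0.23 to 0.19, Ptprc -0.38 to 0.15 and Cst7 -0.026 to 0.16. The last were Spp1 -0.14 to 0.60, Lpl -0.13 to 0.55, Ccl3 -0.18 to 0.046, Ccl6 -0.074 to 0.96, Cd68 -0.44 to 0.029, Axl -0.048 to 0.15 and Cybb -0.27 to 0.70. Il1b was -0.0038 with a pseudocount of 0.5 and -0.028 on values left in bases. The latter and the pairs were added after the data were seen. Rescaling the libraries by median ratios changed no sign. No paired analysis was possible because the groups share no replicate number, and the pairs alike in choroid plexus RNA were formed from the data, so they give differences without a test. The edgeR fit planned in case of whole read counts was not run. Depth limits the chemokine and cytokine genes most, at 0 to 5 read equivalents a library for Ccl3, Ccl4, Il1b and Tnf.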
